A study of Mus musculus with 9 samples.

Results

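The genes described here carry glucose into, through and out of the liver cell: the enzymes of glycolysis and gluconeogenesis, those that build and break down glycogen, the glucose transporters, and a set of insulin response genes. They are 31 named genes of the 41388 in the deposited count tables, picked by symbol after the Ensembl identifiers were matched to gene names, and all 31 were found and passed the filter on low counts. Poly(A)-selected liver RNA was sequenced in 9 libraries, each a pool of RNA from 3 male C57BL/6J mice, so that 27 mice stand behind the values. Every mouse, controls included, had been given the liver carcinogen diethylnitrosamine by intraperitoneal injection, at 25 mg per kg on day 14 of life, had eaten standard chow, and was 6 months old at collection.

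The genotypes were Fabp1 Mttp DKO (DKO below), which lacked Mttp in the liver and Fabp1 in the whole animal, Mttp LKO (MttpLKO below), which lacked Mttp in the liver alone, and Mttp f/f controls (Con below), which carried the floxed gene, with 3 pools each. Mttp encodes the microsomal protein that loads lipid onto nascent lipoproteins for secretion, and Fabp1 encodes the fatty acid binding protein of the hepatocyte cytosol. The sources used here do not give the Cre driver, the feeding state or the hour of collection. Setting DKO against MttpLKO asks what goes with the added loss of Fabp1. MttpLKO against Con asks what goes with the loss of hepatic Mttp. DKO against Con gives both together, and the 3 comparisons share their libraries.

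The liver is the organ that keeps blood glucose steady. After a meal glucose is trapped as glucose-6-phosphate, insulin signalling through the insulin receptor and its substrates turns on glycogen synthesis and glycolysis, and the transcription factor FOXO1 is shut out of the nucleus. In fasting, glucagon and cAMP signalling with FOXO1 and the coactivator encoded by Ppargc1a raise Pck1, G6pc and Igfbp1, glycogen is broken down, and new glucose leaves the cell.

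Total counts ran from 23268389 to 27918197 per library, and all 3 DKO libraries were shallower than the 6 others. Mttp was at 5.79, 3.24 and 4.53 CPM (counts scaled to library size, here after TMM) in the DKO pools, 9.78, 6.14 and 6.26 CPM in the MttpLKO pools and 181, 79.9 and 69.4 CPM in the Con pools. Fabp1 was at 50.3, 67.5 and 78.0 CPM in DKO, against 3379 to 4984 CPM in MttpLKO and 6059.9 to 6845 CPM in Con. Both genes match the labels in every library. Hepatocyte markers were abundant throughout (7 of 8 symbols matched, none at 0, summed level 65110 to 97330 CPM in DKO, 94190 to 107100 CPM in MttpLKO and 87280 to 102600 CPM in Con). The library MttpLKO 3 stood apart, with a score of 53.7 on the first principal component, against -17.4 to 9.6 in the 8 others. Its 8 B and plasma cell markers summed to 637 CPM, against 24.8 to 53.6 CPM in those 8. Bulk RNA cannot tell fewer cells of a type from less RNA per cell.

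The promoters of 4 members are given because the results turn on them: Ugp2 and Gckr were the members furthest below both other genotypes in DKO by p, and Igfbp1 and Pck1 had their highest levels in the same pair of pools. The sequences are from RefSeq (GRCm38.p6), 5′ to 3′ on the gene's own strand, and hold only bases upstream of both the RefSeq start and the gene start in the deposited tables. Capitals mark a motif: CAAAACA (reverse complement TGTTTTG), the core of the insulin response sequences of Igfbp1 and G6pc, or TTACGTCA, the cAMP response element known from Pck1.

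Ugp2, minus strand of chr11:21371268-21371517: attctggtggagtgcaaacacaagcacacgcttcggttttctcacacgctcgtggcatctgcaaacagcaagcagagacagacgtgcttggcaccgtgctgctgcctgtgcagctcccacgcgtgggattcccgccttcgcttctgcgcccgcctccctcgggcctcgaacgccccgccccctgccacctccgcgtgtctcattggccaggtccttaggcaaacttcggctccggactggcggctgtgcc
Gckr, plus strand of chr5:31297313-31297562: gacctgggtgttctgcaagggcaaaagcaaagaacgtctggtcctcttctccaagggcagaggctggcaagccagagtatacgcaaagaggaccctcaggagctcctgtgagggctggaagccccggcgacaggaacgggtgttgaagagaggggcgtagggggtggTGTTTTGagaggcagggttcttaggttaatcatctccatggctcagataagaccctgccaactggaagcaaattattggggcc
Igfbp1, plus strand of chr11:7197537-7197781: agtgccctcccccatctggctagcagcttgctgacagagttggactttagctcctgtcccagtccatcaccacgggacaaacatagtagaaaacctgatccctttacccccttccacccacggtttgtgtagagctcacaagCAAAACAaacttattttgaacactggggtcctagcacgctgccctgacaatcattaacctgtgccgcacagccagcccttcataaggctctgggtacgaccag
Pck1, plus strand of chr2:173152823-173153047: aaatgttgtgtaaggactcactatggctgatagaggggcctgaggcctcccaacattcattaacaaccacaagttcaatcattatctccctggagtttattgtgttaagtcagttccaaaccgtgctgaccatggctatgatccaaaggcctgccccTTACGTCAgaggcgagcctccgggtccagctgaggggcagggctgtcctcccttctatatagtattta

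Both of these motifs were added to the search after the sequences had been read. CAAAACA on either strand lay in the windows of 5 members (G6pc, Gckr, Igfbp1, Irs1 and Irs2), which is 11.1% of the 45 windows of 300 bases that RefSeq gives for 29 members, against 6.28% of all 32851 windows. TTACGTCA lay in the window of Pck1 alone among the members, and in 0.499% of all windows. The full cAMP palindrome TGACGTCA was found in Ldha (2.22% of member windows against 1.79% of all), and the forkhead motif TGTTTAC in no member window against 3.65% of all. CACGTG, the E-box, was in 11.1% of member windows and 7.15% of all, and ACGTG, which overlaps it, in 37.8% and 19.6%. No promoter was tested, and a match marks letters only.

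Per unit of length, the members spanned more than 3 orders of magnitude. On the deposited RPKM scale, averaged over the 9 libraries, Pck1, the enzyme that commits oxaloacetate to glucose synthesis, led at 1185 RPKM, and Fbp1, fructose-1,6-bisphosphatase, came next at 554 RPKM. G6pc, the catalytic subunit of glucose-6-phosphatase, stood at 160 RPKM, Ldha, lactate dehydrogenase A, at 137 RPKM, Igfbp1, a secreted insulin-like growth factor binding protein, at 131 RPKM and Pcx, pyruvate carboxylase, at 116 RPKM. Those 4 are neighbours whose libraries overlapped in level, while every library of Pck1 lay above every library of Fbp1, and every library of Fbp1 above all those of G6pc. At the foot of the order were Hk1 at 0.573 RPKM and Hk2 at 0.454 RPKM, the hexokinases of tissues other than liver, which overlapped each other. Enzymes of gluconeogenesis held the first 3 places.

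**Figure D1:**
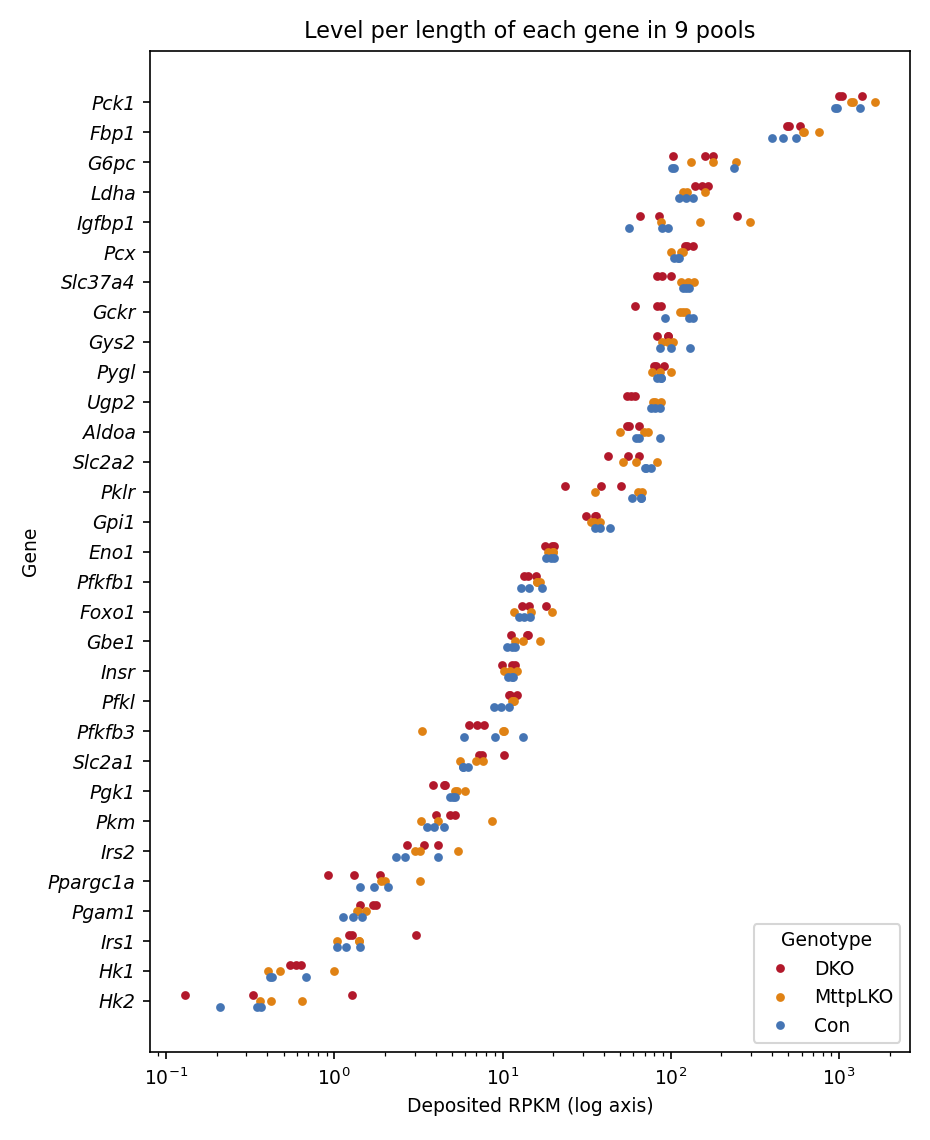
Deposited RPKM of each of the 31 members on a log axis, 1 point per library (DKO red, MttpLKO orange, Con blue), genes in order of their mean over 9 libraries. Pck1 and Fbp1 lie at the top with means of 1185 and 554 RPKM, and Hk1 and Hk2 at the foot with 0.573 and 0.454 RPKM, and the genotypes mix within most rows.

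The liver forms of pyruvate kinase and of the glucose transporter dominated in all genotypes. Pklr, the liver pyruvate kinase, made up 88.8, 90.7 and 85.4% of Pklr and Pkm together in the DKO pools on the RPKM scale, 95.1, 89.5 and 88.7% in MttpLKO and 93.7, 93.8 and 94.9% in Con. All 3 DKO shares lay below all 3 Con shares, and the MttpLKO shares overlapped both. Slc2a2, the low-affinity glucose transporter of hepatocytes, made up 89.5, 88.5 and 80.4% of Slc2a2 and Slc2a1 together in DKO, 92.2, 89.0 and 90.3% in MttpLKO and 91.9, 92.9 and 92.4% in Con. Here too the DKO shares lay below the Con shares without overlap and overlapped those of MttpLKO. These shares were not tested.

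No member passed the adjusted threshold in any comparison. Tests were edgeR's quasi-likelihood F test in 1 fit over the 9 libraries, with Benjamini-Hochberg adjustment over 14741 genes and a threshold of 0.05. In DKO against MttpLKO 0 of 31 members were called, against 0.4% of all genes tested; 7 members were lower and 0 higher at an unadjusted p under 0.05, where 4.45% and 4.65% of all genes were. In DKO against Con 0 of 31 were called, against 0.332% of all genes, with 5 lower and 1 higher at an unadjusted p under 0.05, where 5.33% and 5.91% of all genes were. In MttpLKO against Con 0 of 31 were called, against 0.346%, with 0 lower and 2 higher, where 2.94% and 4.04% of all genes were. DESeq2 called more genes throughout. It called 3 members in DKO against MttpLKO (1.45% of all genes), 2 in DKO against Con (1.85%) and 0 in MttpLKO against Con (1.12%), named below.

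The signs of the members leaned to MttpLKO. Of the 31, 6 had a log2 fold change above 0 in DKO against MttpLKO, where 46.9% of all genes did, and the members' median was -0.15 beside -0.02 for all genes. In MttpLKO against Con 25 were above 0, where 52.3% of all genes were, with medians of 0.16 and 0.01. In DKO against Con 15 were above 0, where 49.6% of all genes were, with medians of -0.004 and -0.002. Libraries of the 2 genotypes did not overlap for 5 members in DKO against MttpLKO (11.5% of all genes), 11 in DKO against Con (18.1%) and 3 in MttpLKO against Con (14.3%). The MttpLKO pools enter the first 2 of these counts of signs on opposite sides, so the leanings are not independent. MttpLKO 2 held the highest of the 9 values for 9 members and MttpLKO 1 for 7.

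**Figure D2:**
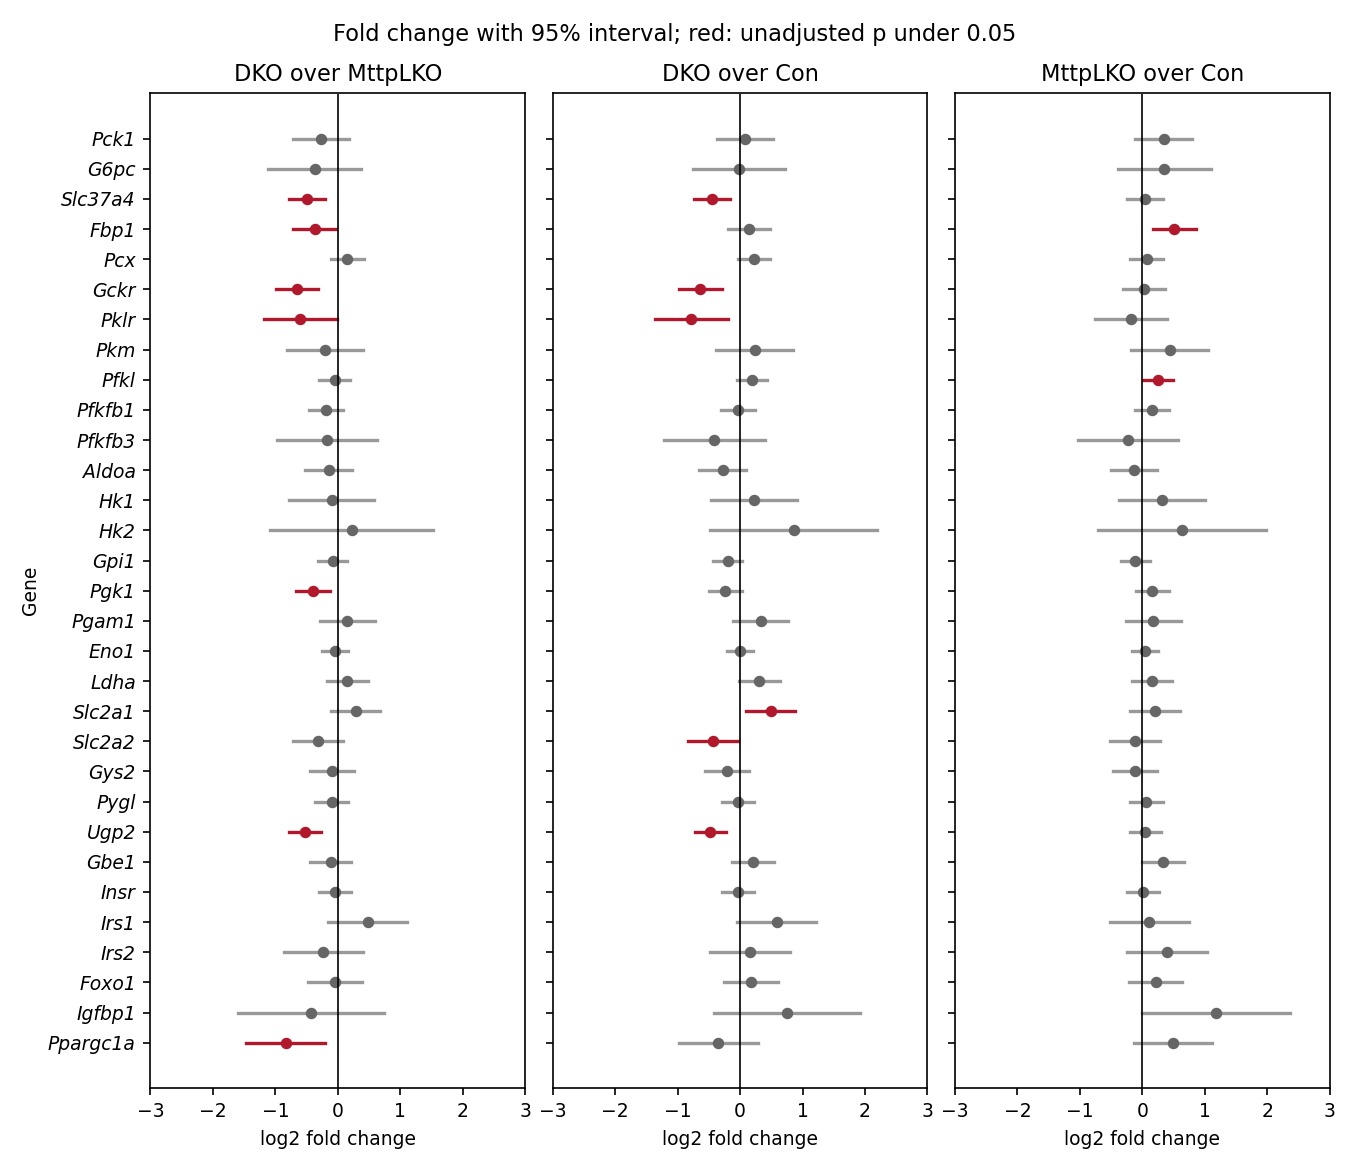
Log2 fold change of each member with its 95% interval from edgeR, in DKO over MttpLKO, DKO over Con and MttpLKO over Con, with members at an unadjusted p under 0.05 in red. In the left panel 25 of 31 points lie below 0, and in the right panel 25 lie above 0.

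Ugp2, Gckr and Slc37a4 had the lowest p in the DKO comparisons, and in each of them every DKO pool lay below all 6 other pools. Ugp2 (chr11:21321138-21371201 in the deposited coordinates) encodes the UDP-glucose pyrophosphorylase that makes the glucose donor of glycogen synthesis. It was at 159, 187 and 186 CPM in DKO, 249.8, 275 and 241 CPM in MttpLKO and 267, 247 and 228 CPM in Con. Its log2 fold change was -0.52 ± 0.11 (SE, 95% interval -0.77 to -0.28) against MttpLKO, with an unadjusted p of 0.000721 and an adjusted p of 0.111 by edgeR, and -0.48 ± 0.11 against Con, with an adjusted p of 0.136.

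Gckr (chr5:31297581-31327300) encodes a nuclear protein of the hepatocyte that regulates the phosphorylation of glucose. It was at 165, 166 and 128 CPM in DKO, 246, 254 and 222 CPM in MttpLKO and 188, 257 and 267 CPM in Con, so that the gap between DKO and the lowest control pool was narrow. Its log2 fold change in DKO was -0.65 ± 0.15 (interval -0.99 to -0.32) against MttpLKO and -0.63 ± 0.15 (interval -0.97 to -0.30) against Con, with adjusted p of 0.150 and 0.148 by edgeR.

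Slc37a4 (chr9:44398176-44402963) encodes the transporter that brings glucose-6-phosphate into the endoplasmic reticulum, where glucose-6-phosphatase acts. It was at 162, 184 and 218 CPM in DKO, 271, 292 and 233 CPM in MttpLKO and 249.9, 258 and 263 CPM in Con. In DKO the log2 fold change was -0.50 ± 0.13 against MttpLKO and -0.45 ± 0.13 against Con, with adjusted p of 0.210 and 0.227 by edgeR. G6pc, which works with it, did not follow: it was at 403, 249 and 399 CPM in DKO, 447, 602 and 311 CPM in MttpLKO and 249, 251 and 564 CPM in Con, with overlap everywhere.

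In all 9 fits that left out a library, these 3 genes had an unadjusted p under 0.05 in both DKO comparisons. They had been picked by p in the same data. In every such set of fits in this report, 3 of the 9 left out a pool of the genotype not compared. The calls depended on the tool: DESeq2 gave adjusted p of 0.00171, 0.00959 and 0.0289 for Ugp2, Gckr and Slc37a4 in DKO against MttpLKO, and 0.00627, 0.0130 and 0.0581 in DKO against Con, and edgeR without a low-count filter gave Gckr 0.0332 and 0.0388, with 0.706% and 0.789% of all genes called in these comparisons. The DKO libraries were also the shallowest, and DKO 1, lowest of the 9 for Ugp2 and Slc37a4, had the lowest hepatocyte marker sum (65110 CPM), while DKO 3, lowest for Gckr, had 97330 CPM. Of the 7 hepatocyte markers matched, 4 were higher in DKO than in MttpLKO and 3 higher in DKO than in Con. The part of depth and of hepatocyte content in these values was not tested.

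**Figure D3:**
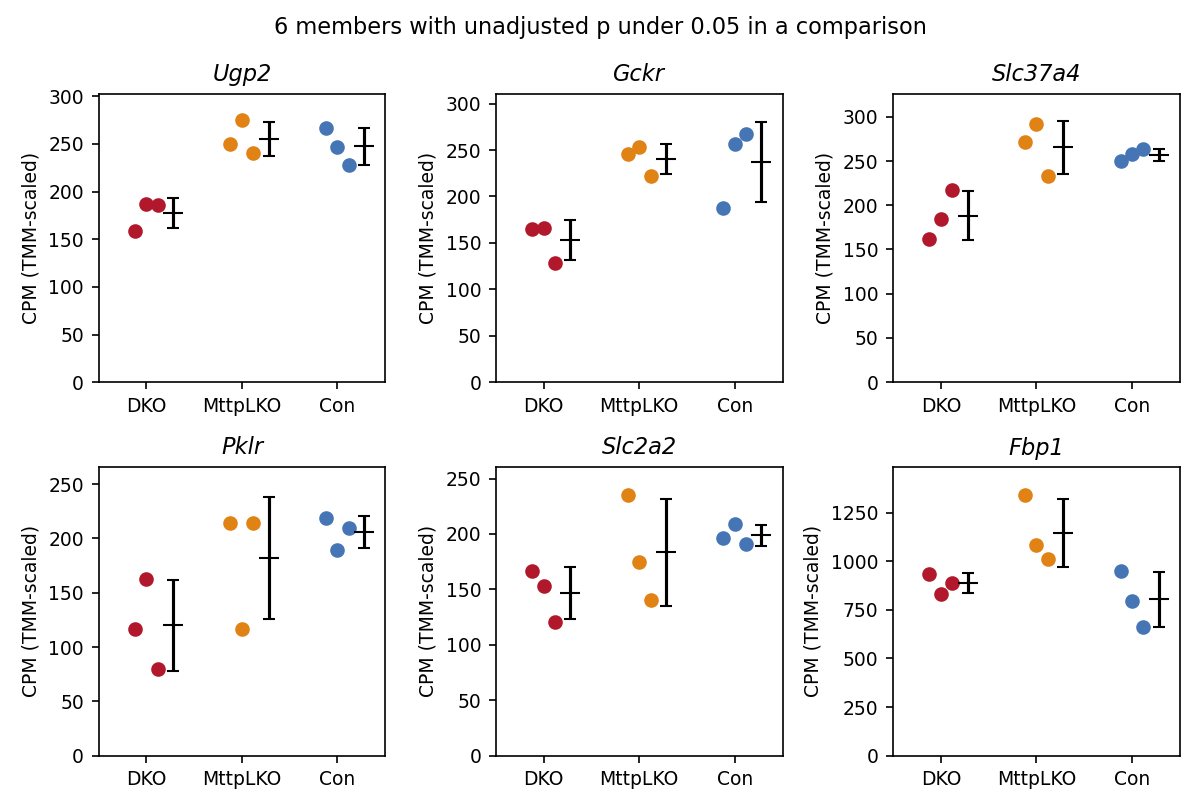
TMM-scaled CPM of 6 members in each pool (points) with the mean and SD of 3 pools per genotype (black bars), DKO left, MttpLKO middle, Con right. For Ugp2, Gckr and Slc37a4 all DKO points lie below all points of the 6 other pools, with DKO means of 177, 153 and 188 CPM.

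Among the remaining genes of gluconeogenesis, Fbp1 (chr13:62864753-62888282) stood out in MttpLKO. It was at 936, 833 and 889 CPM in DKO, 1340.2, 1081 and 1013 CPM in MttpLKO and 950.4, 794 and 664 CPM in Con. Every MttpLKO pool lay above every pool of both other genotypes, which overlapped. In MttpLKO against Con the log2 fold change was 0.51 ± 0.15 (adjusted p 0.390 by edgeR) and -0.37 ± 0.15 in DKO against MttpLKO (adjusted p 0.507). The unadjusted p of the first was under 0.05 in all 9 fits with a library left out, and that of the second in 4 of 9, reaching 0.191 without MttpLKO 1.

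Pck1 was at 3345, 3403 and 4902 CPM in DKO, 4309, 5769 and 3921 CPM in MttpLKO and 3369, 3228 and 4464 CPM in Con. The genotypes overlapped, and the log2 fold change was -0.27 ± 0.20 in DKO against MttpLKO, 0.07 ± 0.20 in DKO against Con (-0.13 without DKO 3) and 0.34 ± 0.20 in MttpLKO against Con. Pcx, which turns pyruvate into oxaloacetate, averaged 539 ± 40.7 CPM in DKO, 484 ± 56.5 CPM in MttpLKO and 462 ± 16.3 CPM in Con (SD, n = 3 each). Its DKO pools lay above its Con pools without overlap, with a log2 fold change of 0.22 ± 0.12 and an adjusted p of 0.527 by edgeR.

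In glycolysis, Pklr (chr3:89136142-89146784) was at 117, 163 and 79.8 CPM in DKO, 215, 117 and 214 CPM in MttpLKO and 219, 189 and 209 CPM in Con. The DKO pools lay below the Con pools, and MttpLKO 2 lay among the DKO pools. Its log2 fold change was -0.78 ± 0.26 in DKO against Con (adjusted p 0.310 by edgeR) and -0.60 ± 0.26 in DKO against MttpLKO (adjusted p 0.533). Without DKO 3 these became -0.56 and -0.37. The exons of Pklr overlap those of Hcn3 on the opposite strand over 711 of its 3236 bases, Hcn3 drew 8860 counts in all against 39322 for Pklr, and the sources used here do not give the strand setting of the counting.

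Pkm, the pyruvate kinase of most other tissues, and Hk1 were both highest in MttpLKO 3. Pkm was at 11.8, 13.5 and 11.0 CPM in DKO, 8.86, 11.1 and 21.9 CPM in MttpLKO and 11.7, 10.1 and 9.04 CPM in Con, and Hk1 was at 8.27 CPM in MttpLKO 3 against 3.54 to 5.82 CPM in the 8 other pools. Leaving that library out turned the log2 fold change in MttpLKO against Con to -0.05 for Pkm and -0.15 for Hk1, where all 9 libraries gave 0.44 ± 0.28 and 0.32 ± 0.31. The same library carried the B and plasma cell marker sum given above (8 of 8 markers higher on average in MttpLKO than in Con, none at 0 in a whole genotype), and its sums were also the highest for T and NK cell (14.3 CPM), stellate and fibroblast (341 CPM), bile duct (139.8 CPM) and proliferation markers (25.7 CPM). Their part in Pkm and Hk1 was not tested.

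Hk2 was among the rarest members and the most uneven, at 7.15, 1.96 and 0.806 CPM in DKO, 2.60, 2.21 and 3.74 CPM in MttpLKO and 2.22, 2.07 and 1.23 CPM in Con. DKO 1 and DKO 3 held the highest and the lowest of the 9 values, 8.87 times apart. The log2 fold change in DKO against Con was 0.86 ± 0.61 over all libraries and -0.41 without DKO 1.

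Pgk1, phosphoglycerate kinase, was at 9.49, 10.2 and 9.10 CPM in DKO, 12.5, 13.9 and 11.5 CPM in MttpLKO and 11.0, 11.5 and 11.4 CPM in Con. No pair of genotypes overlapped, but MttpLKO and Con all but met, at 11.49 CPM in MttpLKO 3 and 11.47 CPM in Con 2. The log2 fold change in DKO was -0.40 ± 0.12 against MttpLKO (adjusted p 0.316 by edgeR) and -0.24 ± 0.12 against Con (adjusted p 0.508). In MttpLKO against Con it was 0.16 ± 0.12 (adjusted p 0.908). Of the 50-base stretches in Pgk1 transcripts 53.9% occur in other genes too, nearly all in Pgk1-rs7, so its level is uncertain, and the same holds for Pgam1 (36.2%), Eno1 (26.0%, mostly Eno1b) and Pkm (25.8%).

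Pfkl, the liver phosphofructokinase, was at 44.9, 53.8 and 50.5 CPM in DKO, 53.4, 51.5 and 49.8 CPM in MttpLKO and 48.8, 39.4 and 42.1 CPM in Con. The MttpLKO pools lay above the Con pools, with a log2 fold change of 0.25 ± 0.11 (adjusted p 0.692 by edgeR), and without Con 2 the unadjusted p was 0.202. Pfkfb3, which makes the fructose-2,6-bisphosphate that switches phosphofructokinase on, was at 46.7, 54.7 and 46.6 CPM in DKO, 24.1, 73.0 and 70.0 CPM in MttpLKO and 63.8, 41.8 and 90.9 CPM in Con. MttpLKO 1 held its lowest value and Con 3 its highest, and the genotypes overlapped.

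Aldoa, Gpi1, Eno1, Pgam1, Ldha and Pfkfb1 each stayed within 1.69 times between the lowest and the highest library. Ldha, which interconverts pyruvate and lactate, averaged 453 ± 57.5 CPM in DKO, 407 ± 72.8 CPM in MttpLKO and 366 ± 28.6 CPM in Con (SD, n = 3 each), and its DKO pools lay above its Con pools (log2 fold change 0.31 ± 0.15, adjusted p 0.464 by edgeR). Eno1, enolase, was the steadiest member at 95.7 to 111 CPM, with a 95% interval of -0.26 to 0.16 in DKO against MttpLKO and -0.21 to 0.20 in DKO against Con. Gpi1 ranged from 146 to 197 CPM, Aldoa from 142 to 238 CPM, Pfkfb1 from 52.4 to 68.8 CPM and Pgam1 from 2.07 to 3.24 CPM. The DKO pools lay below the Con pools for Gpi1 and above them for Pgam1, by narrow gaps. The log2 fold changes in DKO against Con were -0.20 ± 0.11 and 0.33 ± 0.20 (adjusted p 0.530 and 0.590 by edgeR).

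The glucose transporters pointed in opposite directions in DKO against Con. Slc2a1 encodes a glucose transporter of many tissues other than liver. It was at 20.3, 20.7 and 30.6 CPM in DKO, 20.7, 22.3 and 15.6 CPM in MttpLKO and 18.1, 16.6 and 16.3 CPM in Con. Slc2a2 was at 167, 153 and 121 CPM in DKO, 235, 174 and 140.1 CPM in MttpLKO and 196, 209 and 191 CPM in Con. DKO and Con did not overlap for either gene, and the MttpLKO pools spread over both. The log2 fold change in DKO against Con was 0.49 ± 0.18 for Slc2a1 (adjusted p 0.347 by edgeR) and -0.44 ± 0.18 for Slc2a2 (adjusted p 0.399). DKO 3 was the extreme pool for both: without it the values were 0.27 and -0.32 and the unadjusted p 0.117 and 0.124.

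Apart from Ugp2, the glycogen genes overlapped between genotypes in every comparison. Gys2, the liver glycogen synthase, averaged 243 ± 30.7 CPM in DKO, 258 ± 13.3 CPM in MttpLKO and 281 ± 64.6 CPM in Con, and Pygl, the liver glycogen phosphorylase, 319 ± 7.64 CPM in DKO, 342 ± 50.7 CPM in MttpLKO and 327 ± 8.70 CPM in Con (SD, n = 3 each). Gbe1, the branching enzyme, ranged from 56.0 CPM in a Con pool to 92.8 CPM in MttpLKO 1, and its log2 fold change in MttpLKO against Con was 0.32 ± 0.15 (adjusted p 0.731 by edgeR). For Gys2 the 95% interval of the log2 fold change was -0.45 to 0.27 in DKO against MttpLKO, and for Pygl it was -0.36 to 0.16.

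**Figure D4:**
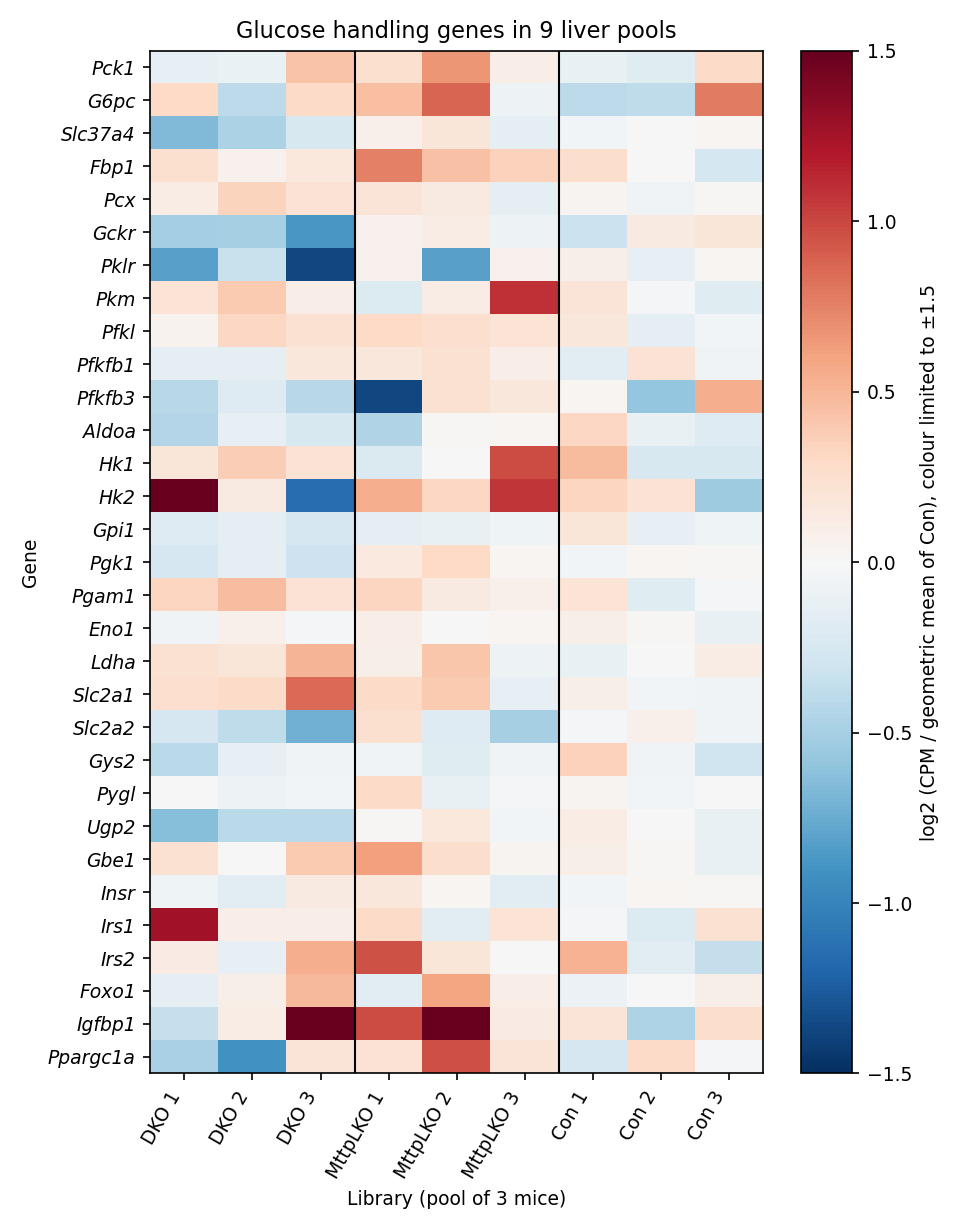
Log2 of each member's TMM-scaled CPM over its geometric mean in the Con pools, in 9 pools of 3 mice, colour limited to ±1.5 (red higher, blue lower). The Slc37a4, Gckr and Ugp2 rows are blue across the 3 DKO columns, Fbp1 is red across MttpLKO, and Igfbp1 is reddest in DKO 3 and MttpLKO 2.

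Among the insulin response genes, the highest library was 5.37 times the lowest for Igfbp1, 3.66 times for Ppargc1a and 1.27 times for Insr. Igfbp1 (chr11:7197782-7202546), which insulin represses in the liver, was at 94.5, 129 and 395 CPM in DKO, 235, 465 and 131 CPM in MttpLKO and 137, 86.5 and 144 CPM in Con. A single DKO pool and a pair of MttpLKO pools lay far above the rest, and the genotypes overlapped. The log2 fold change was 1.18 ± 0.54 in MttpLKO against Con (interval -0.01 to 2.36, adjusted p 0.720 by edgeR) and 0.58 without MttpLKO 2. It was 0.75 ± 0.53 in DKO against Con and -0.14 without DKO 3, and -0.42 ± 0.53 in DKO against MttpLKO and 0.18 without MttpLKO 2.

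Ppargc1a, the coactivator of the fasting programme, was at 8.12, 6.05 and 12.9 CPM in DKO, 13.1, 22.1 and 12.9 CPM in MttpLKO and 9.50, 13.8 and 11.1 CPM in Con. MttpLKO 2 was highest and DKO 2 lowest. The log2 fold change in DKO against MttpLKO was -0.83 ± 0.29 (adjusted p 0.386 by edgeR), -0.52 without MttpLKO 2 with an unadjusted p of 0.0887, and -1.17 without DKO 3.

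Foxo1 was at 68.1, 79.5 and 105 CPM in DKO, 67.3, 113 and 80.1 CPM in MttpLKO and 70.3, 74.8 and 79.5 CPM in Con, again with MttpLKO 2 and DKO 3 highest. Its log2 fold change in MttpLKO against Con was 0.21 ± 0.19 and became -0.02 without MttpLKO 2. Those 2 pools were also the top pair for Igfbp1, for Pck1 (5769 CPM in MttpLKO 2 and 4902 CPM in DKO 3) and for Tat, tyrosine aminotransferase, a glucocorticoid and glucagon target that is not a member (4119 CPM and 3266 CPM, against 922 to 2137 CPM in the 7 others). G6pc had its highest value in MttpLKO 2 as well (602 CPM), but its second in Con 3 (564 CPM).

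**Figure D5:**
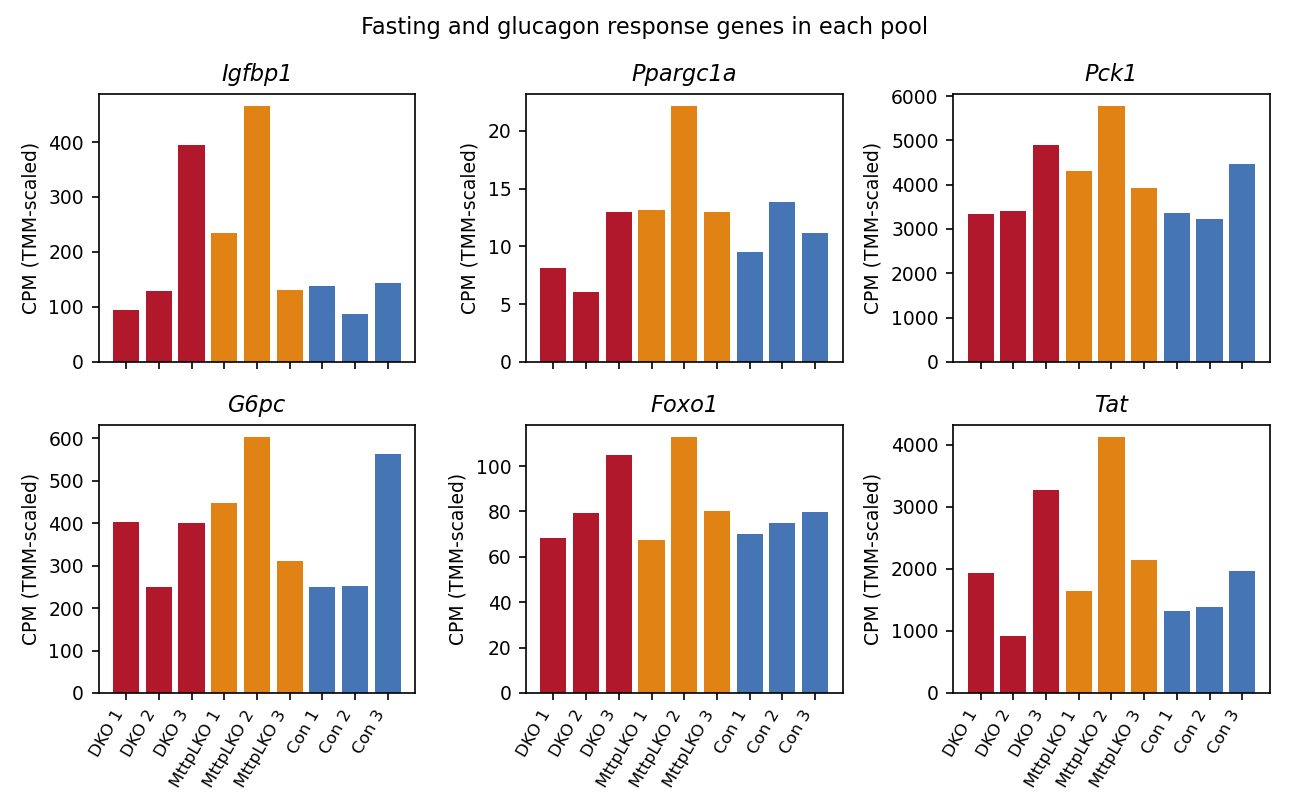
TMM-scaled CPM of Igfbp1, Ppargc1a, Pck1, G6pc, Foxo1 and Tat in each of the 9 pools (1 bar per pool, DKO red, MttpLKO orange, Con blue). MttpLKO 2 holds the highest bar in all 6 panels, and DKO 3 the second for Igfbp1, Pck1, Foxo1 and Tat.

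Insr, the insulin receptor, averaged 106 ± 11.8 CPM in DKO, 109 ± 12.7 CPM in MttpLKO and 108 ± 2.94 CPM in Con (SD, n = 3 each), with 95% intervals of the log2 fold change of -0.30 to 0.21 in DKO against MttpLKO and -0.24 to 0.27 in MttpLKO against Con. Irs1 was at 26.2 CPM in DKO 1 and at 9.48 to 13.4 CPM in the 8 other pools. Without DKO 1 its log2 fold change in DKO against MttpLKO became -0.02, where all libraries gave 0.48 ± 0.29. Irs2, the substrate that fasting raises, ranged from 9.22 CPM in Con 3 to 22.8 CPM in MttpLKO 1 and overlapped throughout. Of the Irs1 stretches 30.5% lie in the antisense gene Gm9747, which drew 0 counts.

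The rest of the pathway was described from 8 further lists, with the 2 smallest p per comparison named, and 2 of their genes, Asns and Me1, were called by edgeR. Asns, asparagine synthetase, counted here with genes that fasting induces and also known as a target of the amino acid response, was at 33.6, 15.3 and 20.2 CPM in DKO, 43.6, 26.6 and 21.4 CPM in MttpLKO and 4.73, 9.40 and 4.27 CPM in Con. It rose in MttpLKO against Con by 2.31 ± 0.38 on the log2 scale (adjusted p 0.0372 by edgeR), and in DKO against Con the log2 fold change was 1.91 ± 0.38 (adjusted p 0.0868). Its call was lost, with adjusted p of 0.0572 to 0.176, in a fit of the 6 libraries compared and without Con 1, Con 3, MttpLKO 1, MttpLKO 2 or DKO 2.

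Me1, the malic enzyme that makes NADPH for fat synthesis, was at 62.1, 56.3 and 53.4 CPM in DKO, 106, 92.5 and 94.0 CPM in MttpLKO and 91.4, 83.9 and 77.7 CPM in Con. It fell in DKO against MttpLKO by 0.77 on the log2 scale (SE 0.11, adjusted p 0.0105 by edgeR), and against Con its log2 fold change was -0.56 ± 0.11 (adjusted p 0.0667). The call was lost, with adjusted p of 0.0505 to 0.0585, in a fit of the 6 libraries compared and without MttpLKO 2 or DKO 2. Whether the level of Me1 goes with Fabp1 or with another difference between the mouse lines was not tested.

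Among 22 other genes of glycolysis and gluconeogenesis edgeR and DESeq2 called 0 in the 3 comparisons. At an unadjusted p under 0.05 by edgeR, 3 were lower and 1 higher in DKO against MttpLKO, 3 lower and 0 higher in DKO against Con, and 0 lower and 1 higher in MttpLKO against Con. In the same order, 4.45% and 4.65%, 5.33% and 5.91%, and 2.94% and 4.04% of all genes were lower and higher. DESeq2 called 1.45%, 1.85% and 1.12% of all genes in these comparisons. These shares apply to the lists below too, and no list was tested as a set. Eno3, the muscle enolase, had a log2 fold change of -0.49 in DKO against MttpLKO and -0.57 against Con (adjusted p 0.372 and 0.222 by edgeR), and Pck2, the mitochondrial PEPCK, of -0.50 against Con (adjusted p 0.328). Eno2, the enolase of neurons, was under 1 CPM in every library and higher in all 3 MttpLKO pools than in the others, with a log2 fold change of 1.14 in MttpLKO against Con and -1.11 in DKO against MttpLKO (adjusted p 0.415 and 0.368). Adpgk, second by p in MttpLKO against Con, had -0.18.

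Of 20 genes of pyruvate and lactate handling, 19 were tested and edgeR called 0. At an unadjusted p under 0.05, 1 was lower and 0 higher in DKO against MttpLKO, 1 lower and 2 higher in DKO against Con, and 0 lower and 2 higher in MttpLKO against Con, and DESeq2 called Got1 in the last of these. Got1, the cytosolic aspartate aminotransferase, was at 246, 158 and 447 CPM in DKO, 395, 710.3 and 519 CPM in MttpLKO and 167, 181 and 221 CPM in Con. Every MttpLKO pool lay above every Con pool, with a log2 fold change of 1.51 ± 0.33 (adjusted p 0.135 by edgeR), and in DKO against MttpLKO it was -0.93 ± 0.33 (adjusted p 0.4). Pdp2, a phosphatase that activates pyruvate dehydrogenase, had a log2 fold change of 0.45 in DKO against Con (adjusted p 0.211), the pyruvate dehydrogenase kinase Pdk1 -0.38 against MttpLKO and -0.40 against Con, and the monocarboxylate transporter Slc16a7 0.37 in MttpLKO against Con.

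Of 21 other glycogen genes, 20 were tested and edgeR called 0. At an unadjusted p under 0.05, 3 were lower and 1 higher in DKO against MttpLKO, 1 lower and 1 higher in DKO against Con, and 0 lower and 2 higher in MttpLKO against Con, and DESeq2 called Pygb in DKO against Con. Pygb, the brain phosphorylase, was at 7.48, 8.90 and 7.39 CPM in DKO, 4.35, 5.18 and 8.49 CPM in MttpLKO and 4.16, 3.80 and 4.45 CPM in Con, with a log2 fold change of 0.94 ± 0.23 in DKO against Con (adjusted p 0.163 by edgeR) and 0.54 ± 0.23 in MttpLKO against Con (adjusted p 0.686). Its DKO pools lay above its Con pools, and MttpLKO 3 was its highest MttpLKO pool. Phkb, a phosphorylase kinase subunit, had 0.45 in MttpLKO against Con and -0.40 in DKO against MttpLKO, and Ppp1r3c, a glycogen-targeting phosphatase subunit, -0.73 in DKO against Con, with adjusted p of 0.411 to 0.438.

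For hexose transport, fructose and ChREBP 14 of 15 genes were tested and edgeR called 0. At an unadjusted p under 0.05, 2 were lower and 1 higher in DKO against MttpLKO, 4 lower and 0 higher in DKO against Con, and 0 in MttpLKO against Con, and DESeq2 called Khk in DKO against Con. Khk, ketohexokinase, which starts fructose breakdown, was at 481, 618 and 404 CPM in DKO, 664, 648 and 587 CPM in MttpLKO and 725, 724 and 741 CPM in Con. All DKO pools but DKO 2 lay below the MttpLKO pools, and all DKO and MttpLKO pools lay below those of Con, with a log2 fold change of -0.54 ± 0.15 in DKO against Con (adjusted p 0.211 by edgeR). Tkfc, next in the same pathway, had -0.34 in DKO against Con. Mlx, the ChREBP partner, had 0.27 in DKO against MttpLKO, and Galt -0.30 and Sord 0.35 in MttpLKO against Con. Slc2a4 had -1.45 ± 0.57 in DKO against MttpLKO (adjusted p 0.486 by edgeR). It was rare, at 4 to 37 counts or 0.170 to 1.41 CPM per library. MttpLKO 1 was highest, and the DKO and MttpLKO pools overlapped.

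The 28 genes of insulin and glucagon signalling held 0 calls by edgeR or DESeq2. At an unadjusted p under 0.05, 0 were lower and 3 higher in DKO against MttpLKO, 0 lower and 2 higher in DKO against Con, and 2 lower and 0 higher in MttpLKO against Con. Log2 fold changes were above 0 for 21, 17 and 15 of the 28 in these comparisons, where 46.9%, 49.6% and 52.3% of all genes were. Socs3, a feedback inhibitor of cytokine and insulin signalling, had a log2 fold change of 1.20 ± 0.46 in DKO against MttpLKO (adjusted p 0.468 by edgeR), resting on DKO 2 at 121 CPM against 20.8 to 51.1 CPM in the 8 other pools. Of 5 adipocyte markers matched, Cfd alone was high in DKO 2, at 56.6 CPM against 1.29 to 11.7 CPM in the 8 other pools. The 4 others stood at 0 to 0.184 CPM over all pools, with Lep at 0 in every library and Plin1 at 0 in DKO 2. The phosphatase Ptpn1 had 0.37 in DKO against MttpLKO and 0.35 against Con, Akt2 0.27 in DKO against Con, and Pik3r2 and Igf1r -0.23 and -0.61 in MttpLKO against Con.

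Of 17 circadian clock genes, 16 were tested and edgeR called 0. At an unadjusted p under 0.05, 2 were lower and 1 higher in DKO against MttpLKO, 1 lower and 1 higher in DKO against Con, and 0 lower and 1 higher in MttpLKO against Con, and DESeq2 called Clock in DKO against Con. Clock, which encodes a core activator of the circadian loop, was at 32.1, 18.0 and 22.9 CPM in DKO, 14.7, 14.9 and 13.8 CPM in MttpLKO and 10.6, 14.5 and 17.5 CPM in Con, with a log2 fold change of 0.75 ± 0.22 against MttpLKO and 0.78 ± 0.22 against Con (adjusted p 0.282 and 0.215 by edgeR). Every DKO pool lay above the 6 others. Ciart had -0.60 in DKO against MttpLKO, Tef -0.33 in DKO against Con, and Nfil3 and Arntl 0.76 and 0.64 in MttpLKO against Con. Nr1d1, a clock repressor with a steep daily rhythm, differed within genotypes, at 141, 233 and 59.9 CPM in DKO, 195, 81.6 and 136 CPM in MttpLKO and 163, 208 and 169 CPM in Con. Its lowest pools were DKO 3 and MttpLKO 2, the top pair for Igfbp1 and Pck1. Dbp, of the same list, was also lowest there (98.3 and 96.4 CPM, against 138 to 188 CPM in the others). Nr1d2 was instead near its highest there (58.5 and 58.9 CPM, against 41.6 to 59.7 CPM in the others). Per1 was at 118 CPM in DKO 3 and 166 CPM in MttpLKO 2. No link between these levels was tested. Nr1d1, Dbp, Nr1d2, Per1 and Tat were singled out after their values were seen.

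Beyond Asns and Me1, the fasting and feeding lists of 11 genes each held no gene called by edgeR. DESeq2 called Asns and Me1 in DKO against Con too, and Scd1 in that comparison. Acot1, a fatty acyl-CoA thioesterase, had a log2 fold change of 1.35 ± 0.37 in DKO against Con (adjusted p 0.211 by edgeR) and 0.68 against MttpLKO. Fgf21 had -1.58 ± 0.50 in MttpLKO against Con (adjusted p 0.416) and Lpin1 -0.90 ± 0.43 in DKO against MttpLKO (adjusted p 0.565). Of the lipogenic genes, Scd1 had -1.15 ± 0.33 in DKO against Con and -0.91 ± 0.32 in MttpLKO against Con (adjusted p 0.216 and 0.538), Fasn -0.77 in MttpLKO against Con and Acacb 0.53 in DKO against MttpLKO. In DKO against Con 1 of the 11 feeding genes had a log2 fold change above 0, where 49.6% of all genes tested did. Their median was -0.55 beside -0.002 for all genes. In MttpLKO against Con 2 of 11 were above 0, where 52.3% of all genes were, with medians of -0.42 and 0.01. In DKO against MttpLKO 3 of 11 were above 0, where 46.9% of all genes were, with medians of -0.20 and -0.02. Of the 11 fasting genes, 8 were above 0 in DKO against Con, 8 in DKO against MttpLKO and 9 in MttpLKO against Con. At an unadjusted p under 0.05 by edgeR, 1 fasting gene was lower and 4 higher in DKO against Con, and 4 feeding genes lower and 0 higher. In DKO against MttpLKO 1 feeding and 0 fasting genes were lower, and 0 of either list higher. In MttpLKO against Con 1 fasting gene was lower and 1 higher, and 2 feeding genes lower and 0 higher.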

How the data were processed

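RNA of 9 pools was deposited as a table per library. Per the labels' protocols, DNase-treated Trizol RNA was enriched with oligo(dT). Each table holds counts of reads per gene, deposited as whole numbers without normalization, and CPM and RPKM values that the authors computed, per the file headers. The submitters' processing notes list featureCounts 1.4.5, Subread and STAR 2.0.4b, without saying what each did. The sources used here do not give the genome build, the strand setting or the rule for reads with several matches.

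Identifiers were matched to GENCODE M21 symbols, and 97.26% had one. CPM recomputed from the counts differed from the deposited CPM by at most 5.09e-11, and RPKM by at most 7.46e-11. Deposited RPKM was used for levels between genes and in no test. Counts were tested with edgeR 4.0.16 (R 4.3.3) by its quasi-likelihood F test, in 1 fit of 3 genotype means over 9 libraries with TMM scaling, filterByExpr at a minimum count of 10 (14741 genes kept) and Benjamini-Hochberg adjustment. CPM values are on TMM-scaled library sizes, and each standard error is the absolute log2 fold change over the square root of F. The biological coefficient of variation was 18.3%. The procedure was tested on simulated data, with large changes set in MttpLKO, the spread of this fit and no outlying pool. That test does not cover small changes or an outlying library. Replicate libraries differed by more than sampling noise (chi-square over its degrees of freedom at least 19.6). Pools are replicates by their labels, p-values measure only the spread between pools, and this spread is smaller than between single mice.

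The members and lists were chosen with earlier results of these data known. Values in every library are given for members with an unadjusted p under 0.05 and no overlap in a comparison, or a highest library over 3 times the lowest, and for some others. A few genes that the rule or the lists would name are not reported here. Alternatives were RLE size factors, no low-count filter, a minimum count of 30, DESeq2 1.42.0, fits of the 6 libraries compared, the replicate number as a block, and each library left out in turn. Sequence shared with other genes was found as 50-base stretches of M21 transcripts, and overlapping exons in the deposited coordinates. Promoter windows run from 250 bases before to 50 bases after each RefSeq start.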

Additional observations from a re-analysis of the deposited data

How the results depend on the processing

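Of 1395 recomputed log2 fold changes of members (31 genes, 3 comparisons, 15 alternatives), 6 changed sign from beyond 1 standard error, all with a library left out, 7 gained a call, and 13 others that lay within 1 standard error of 0 changed sign and moved by more than that error, also with a library left out. The ranges over the 9 fits with a library left out were, in MttpLKO against Con, -0.052 to 0.68 for Pkm, -0.15 to 0.60 for Hk1 and -0.023 to 0.36 for Foxo1; in DKO against MttpLKO, -0.023 to 0.69 for Irs1; and in DKO against Con, -0.41 to 1.31 for Hk2 and -0.14 to 1.10 for Igfbp1. Members called numbered 3 by DESeq2 and 1 with no low-count filter in DKO against MttpLKO, and 2 and 1 in DKO against Con, beside 0 in the report. Genes called numbered 214 by DESeq2, 180 with no filter, 34 in a fit of the 6 libraries compared and 22 to 73 with a library left out in DKO against MttpLKO (59 in the report), 256, 201, 78 and 15 to 100 in DKO against Con (49 in the report), and 165 by DESeq2, 171 with no filter and 14 to 54 with a library left out in MttpLKO against Con (51 in the report). The cause was not tested.

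With the replicate number as a block, 43 genes were called in DKO against MttpLKO, 40 in DKO against Con and 35 in MttpLKO against Con, and 0 members in each. The numbers share nothing in the labels. Deviations of same-numbered libraries correlated at -0.24 to 0.07, and those of differently numbered libraries at -0.18 to 0.21, so no pairing by number was seen. With 3 pools per genotype, the check is too small to tell whether same-numbered pools shared a batch.

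With 3 pools per genotype, the 95% interval of the log2 fold change held 0 for 24 of 31 members in DKO against MttpLKO, 25 in DKO against Con and 29 in MttpLKO against Con. Members under 5 CPM, such as Hk2 and Pgam1, rest on few reads.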
